A study of Arabidopsis thaliana with 15 samples.

Results

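The XTH and expansin genes are 2 families of Arabidopsis thaliana known for wall-loosening proteins secreted by growing cells. The list taken for them held 53 genes by locus tag: 28 xyloglucan endotransglucosylase/hydrolases (XTH), 18 α-expansins (EXPA), 3 β-expansins (EXPB), 3 expansin-like A genes (EXLA) and 1 expansin-like B gene (EXLB). A member counted as measured where the annotation of the array platform gave a probe set to that gene alone. This left 24 of the 53, among 13333 genes with a probe set of their own: 9 XTH and 15 expansin genes (8 EXPA and all of the EXPB, EXLA and EXLB genes). Each had 1 such probe set, so that none had to be chosen among several. The other 29 were not analysed here: XTH4, XTH5, XTH6, XTH7, XTH8, XTH9, XTH10, XTH12, XTH13, XTH14, XTH15, XTH17, XTH22, XTH23, XTH24, XTH25, XTH28, XTH30, XTH31, EXPA1, EXPA3, EXPA5, EXPA6, EXPA10, EXPA11, EXPA12, EXPA13, EXPA14 and EXPA17. Counts below describe the 24 genes and not the whole families.

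Roots of Col-0 seedlings were profiled on Affymetrix arrays in the lateral root inducible system. Seeds germinated on 10 µM NPA, which blocks polar auxin transport and so holds back lateral roots, and the seedlings were 3 days past germination when sampling began. The groups were roots still on NPA (before treatment, labelled mock), roots moved to 10 µM NAA, a synthetic auxin, for 2 h or 6 h, and roots moved to 50 µM naxillin, a lateral root inducer that the labels call non-auxin-like, for 2 h or 6 h. Every group held 3 arrays, 1 from each of 3 independent experiments, and each RNA sample came from 500 root pieces cut without the meristem. All 5 groups had grown on NPA; no roots were moved to a medium without a compound, and the doses of the compounds differ. Whether the media with NAA or naxillin also held NPA is not given in the labels. A change from before treatment therefore holds transfer, elapsed time and any removal from NPA as well as the compound.

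A plant cell grows when its wall yields to turgor. Xyloglucan chains tie cellulose microfibrils together, and XTH enzymes cut such a chain and join the cut end to another chain or, in some members, to water. Expansins have no known hydrolytic activity and loosen contacts between wall polymers, best at the acid pH that proton pumps give the wall. The expansin-like proteins share both domains of expansins, but wall loosening has not been shown for them. In roots these genes are known from the elongation zone, from root hairs and from the cells around an emerging lateral root.

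All values are log2 expression values as deposited, and 3 values in a row are replicates 1, 2 and 3. Across arrays the lower quartile was 4.69 to 4.80 and the highest value 14.58 to 14.83, and the correlation across probe sets was 0.984 to 0.9959 within groups. A probe set brightens with its own affinity as well as its transcript, so that levels are compared within a gene and not between genes. The dim probe sets that a filter on low means left out ended at 5.5, and 9 members lay below it: XTH16, XTH19, XTH21, XTH26, XTH33, EXPA8, EXPA16, EXPB1 and EXLA2. The filter took the mean over all 15 arrays. EXPB2 (mean 5.58), EXLA3 (5.54) and XTH18 (6.56) passed it, but their means before treatment were 5.242, 5.095 and 5.483. These low values were not shown to lie above background, and a change from such a level may understate the change in transcript. In whole roots, fewer cells of a type and less RNA per cell cannot be told apart. The auxin-responsive LBD16 gene rose by 3.65 at 2 h of NAA (SE 0.13, adjusted p = 4.29e-10) and by 0.66 at 6 h of naxillin (SE 0.13, adjusted p = 0.0332). At 2 h of naxillin its difference of 0.41 was not called (SE 0.13, adjusted p = 0.0647). Of 5 auxin-responsive genes measured as a check, only GH3.3 was called at that time (1.33, SE 0.34, adjusted p = 0.0265). Few markers of cell types had a probe set of their own. Among them PYK10, a β-glucosidase abundant in roots, stayed at group means of 14.31 to 14.50, near the top of the scale, while the cortex gene CO2 lay at group means of 4.69 to 4.98, within the range of dim probe sets. The photosynthesis genes RCA and LHCB4.2, 2 of 8 listed, had group means of 9.08 to 11.08 and 5.27 to 8.37.

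The 24 genes split rather than moving as one. With NAA, 1 set of α-expansins climbed and stayed high, another set of genes was high at 2 h and back or below the starting level at 6 h, and a group with XTH32, XTH27 and the expansin-like gene EXLB1 sank from 2 h to 6 h. With naxillin, the changes from before treatment that passed the test were rises at 2 h. Linear models over all 15 arrays (limma, two-sided, Benjamini-Hochberg over 22746 probe sets, called at an adjusted p under 0.05) called 19 of the 24 genes in at least 1 of 9 comparisons. At 2 h of NAA 10 were called against before treatment, 6 higher and 4 lower, where 25.8% of all probe sets were called (10.5% higher, 15.3% lower). At 6 h of NAA 15 were called, 8 higher and 7 lower, where 52.1% of all probe sets were called (22.8% higher, 29.4% lower). At 2 h of naxillin 6 were called, 6 higher and 0 lower, where 10.6% of all probe sets were called (4.4% higher, 6.16% lower); at an unadjusted p under 0.05, limma gave 10 higher and 0 lower. At 6 h of naxillin limma called 0, where 0.963% of all probe sets were called (0.58% higher, 0.382% lower); 2 were higher and 4 lower at an unadjusted p under 0.05. The share of all probe sets at an unadjusted p under 0.05 was not counted, so those unadjusted counts have no baseline. With array weights, the 0 called at 6 h of naxillin became 4, 1 higher and 3 lower. The share of all probe sets called with array weights was not counted either. All 4 comparisons share the same 3 arrays before treatment.

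The median change of the members was 0.08 at 2 h of NAA and −0.16 at 6 h, beside −0.03 over all probe sets at both times. For naxillin it was 0.34 at 2 h beside −0.03 over all, and −0.03 at 6 h beside −0.03. Scaled on the poly-A spike-in controls, the median over the array at 6 h of NAA went from −0.03 to 0.25. No called member changed its direction under that or any other scaling. The split at 2 h of NAA was 8 higher and 3 lower with spike-in scaling and 7 and 3 with median centring. The median over the array at that time went from −0.03 to 0.065 and 0.01 with these scalings. How many of all probe sets were called under them was not counted. In the heat map of the arrays, replicates of a group mostly share a colour.

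**Figure D1:**
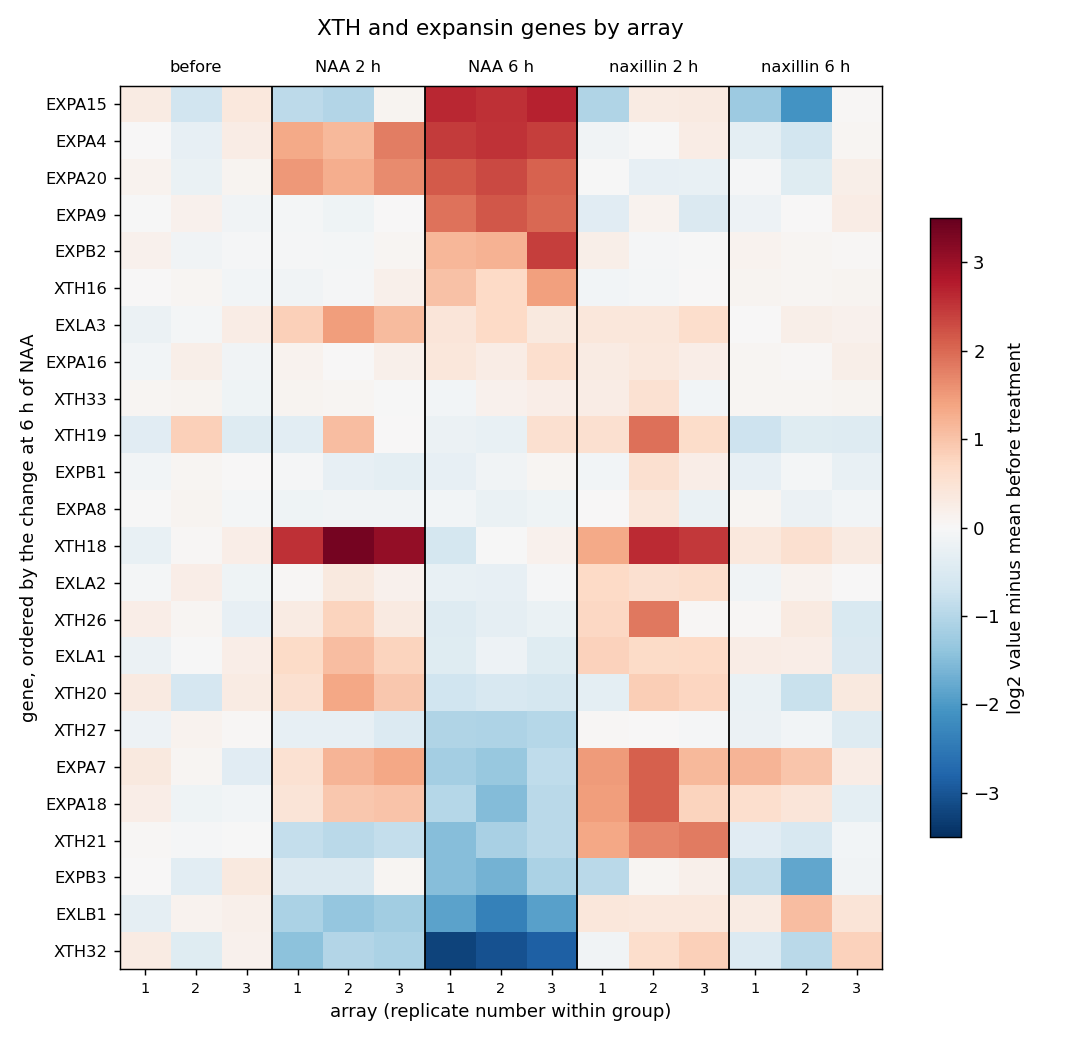
Heat map of the 24 measured XTH and expansin genes (rows) on the 15 arrays (columns, 3 replicates in each of 5 groups); colour gives the log2 value minus the gene's mean before treatment, and rows run from the largest rise to the largest fall at 6 h of NAA. EXPA15 (2.63) heads and XTH32 (−3.05) ends the order, and XTH18 is dark at 2 h of both compounds and pale at 6 h.

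Among the XTH enzymes, XTH18 gave the largest change at 2 h. It belongs to a group of close relatives, XTH17 to XTH20, expressed in roots. XTH18 (AT4G30280) read 5.22, 5.53 and 5.71 before treatment, 8.03, 8.82 and 8.57 at 2 h of NAA and 4.87, 5.46 and 5.62 at 6 h of NAA. With naxillin it read 6.80, 8.10 and 7.96 at 2 h and 5.86, 6.05 and 5.80 at 6 h. All 6 arrays at 2 h lie above all 3 before treatment, and those at 6 h of NAA overlap the level before treatment. The rise at 2 h of NAA was 7.95-fold (log2 2.99, SE 0.30, adjusted p = 9.44e-06) and at 2 h of naxillin 4.40-fold (log2 2.14, SE 0.30, adjusted p = 0.000933). Between 2 h and 6 h XTH18 fell by 3.16 with NAA (SE 0.30, adjusted p = 2.24e-06) and by 1.72 with naxillin (SE 0.30, adjusted p = 0.0105). The fall with naxillin had an adjusted p of 0.101 in a fit of those 6 arrays alone, and of 0.051 and 0.0521 without replicate 2 or 3 of naxillin at 2 h. The difference between naxillin and NAA at 2 h, −0.85 (95% interval −1.50 to −0.20, adjusted p = 0.0753), was not called.

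XTH20 and XTH19, of the same group, moved less. XTH20 (AT5G48070) read 8.80, 7.90 and 8.79 before treatment and 9.07, 9.85 and 9.44 at 2 h of NAA, a difference of 0.95 that missed the threshold (SE 0.34, adjusted p = 0.0572). XTH20 at 6 h of NAA read 7.80, 7.93 and 7.87, a fall of 1.58 from 2 h (SE 0.34, adjusted p = 0.00188). With naxillin XTH20 had means of 8.91 at 2 h and 8.28 at 6 h, and no comparison of the naxillin arrays called it. XTH19 is the next protein-coding gene to XTH18 in the RefSeq annotation (assembly TAIR10.1). Its values spread widely within groups, from 4.35, 5.59 and 4.30 before treatment to 5.30, 6.68 and 5.38 at 2 h of naxillin, with replicate 2 the highest in both and also at 2 h of NAA. The difference of 1.04 there was not called (SE 0.44, adjusted p = 0.157), nor was any other of XTH19 in this fit, which takes the arrays of a group as unpaired. XTH24, which lies next to XTH18 on the other side, was not measured.

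XTH21, known for a part in growth of the primary root, went opposite ways with the compounds at 2 h. XTH21 (AT2G18800) read 5.36, 5.27 and 5.30 before treatment, 6.66, 7.03 and 7.14 at 2 h of naxillin and 4.49, 4.36 and 4.49 at 2 h of NAA. At 6 h it read 4.91, 4.76 and 5.22 with naxillin and 3.81, 4.17 and 4.36 with NAA. The 3 groups before treatment and at 2 h are fully apart, with naxillin on top and NAA at the bottom. The difference of XTH21 between 6 h of naxillin and before treatment, −0.35 (SE 0.15, adjusted p = 0.344), was not called. XTH21 rose 3.1-fold at 2 h of naxillin (log2 1.63, SE 0.15, adjusted p = 8.34e-05) and fell by 0.86 at 2 h of NAA (SE 0.15, adjusted p = 0.00102) and by 1.2 at 6 h (SE 0.15, adjusted p = 1.33e-05). Naxillin exceeded NAA 5.64-fold at 2 h (log2 2.50, 95% interval 2.17 to 2.83, adjusted p = 1.10e-07) and by 0.85 at 6 h (SE 0.15, adjusted p = 0.000299). From 2 h to 6 h of naxillin it fell by 1.98 (SE 0.15, adjusted p = 0.000111). The values with NAA lie at or below the lower quartile of the arrays.

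XTH32 and XTH27 sank with NAA. XTH32 (AT2G36870), of the branch of the family known for xyloglucan hydrolysis, read 8.60, 7.89 and 8.48 before treatment, 6.88, 7.29 and 7.22 at 2 h of NAA and 5.09, 5.28 and 5.46 at 6 h of NAA. With naxillin it read 8.21, 8.95 and 9.17 at 2 h and 7.85, 7.39 and 9.14 at 6 h. The NAA arrays form 2 steps below all others, while the naxillin arrays overlap those before treatment. The fall of XTH32 at 6 h of NAA was 8.28-fold (log2 −3.05, SE 0.36, adjusted p = 6.23e-06). At 2 h it was 1.19 (SE 0.36, adjusted p = 0.0254), a call lost without replicate 1 or 3 before treatment (adjusted p 0.0876 and 0.0767) or without replicate 1 or 3 of NAA at 2 h (0.0812 and 0.0552). XTH27 (AT2G01850), also named EXGT-A3 and known from the development of water-conducting cells in leaf veins, read 10.83, 11.13 and 11.03 before treatment, 10.70, 10.72 and 10.52 at 2 h of NAA and 9.94, 9.91 and 9.99 at 6 h of NAA. With naxillin XTH27 read 11.05, 11.01 and 10.95 at 2 h and 10.79, 10.90 and 10.55 at 6 h. It also steps down with NAA, with replicates closer together than those of XTH32. XTH27 fell by 1.05 at 6 h of NAA (SE 0.10, adjusted p = 1.02e-06). The fall of 0.35 at 2 h (SE 0.10, adjusted p = 0.0222) had an adjusted p of up to 0.103 without 1 array, was not called without replicate 2 or 3 before treatment or without replicate 3 of NAA at 2 h, and was lost with median centring or spike-in scaling.

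XTH16 was raised late with NAA, from a dim signal. XTH16 (AT3G23730) read 4.59, 4.64 and 4.46 before treatment, 4.44, 4.53 and 4.74 at 2 h of NAA and 5.59, 5.26 and 6.00 at 6 h of NAA. With naxillin XTH16 read 4.46, 4.51 and 4.59 at 2 h and 4.67, 4.62 and 4.67 at 6 h. The arrays at 6 h of NAA are the only ones above 5, and the rise was 1.05 (SE 0.14, adjusted p = 2.37e-05). XTH26, known from root hairs, and XTH33, known for a membrane anchor, were called in none of the 9 comparisons. XTH26 read 5.58, 6.70 and 4.89 at 2 h of naxillin against 5.07, 4.90 and 4.56 before, a difference of 0.88 with an SE of 0.34 (adjusted p = 0.126). XTH33 stayed within 4.84 to 5.54 on all arrays.

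The root hair expansins EXPA7 and EXPA18 were higher at 2 h of naxillin and lower at 6 h of NAA. EXPA7 (AT1G12560) read 7.20, 6.93 and 6.47 before treatment, 7.40, 8.05 and 8.21 at 2 h of NAA and 5.67, 5.55 and 5.98 at 6 h of NAA. With naxillin EXPA7 read 8.36, 8.96 and 7.99 at 2 h and 8.05, 7.85 and 7.14 at 6 h. EXPA18 (AT1G62980) read 7.47, 7.09 and 7.13 before treatment, 7.69, 8.17 and 8.23 at 2 h of NAA and 6.23, 5.70 and 6.30 at 6 h of NAA. With naxillin EXPA18 read 8.70, 9.32 and 8.0 at 2 h and 7.81, 7.66 and 6.88 at 6 h. In both genes the NAA arrays at 6 h are below every other array and the arrays at 2 h of either compound are above all those before treatment. EXPA7 rose by 1.57 at 2 h of naxillin (SE 0.29, adjusted p = 0.00495) and EXPA18 by 1.44 (SE 0.30, adjusted p = 0.0101). With NAA EXPA7 rose by 1.02 at 2 h (SE 0.29, adjusted p = 0.0197), while EXPA18 differed by 0.80 and was not called (adjusted p = 0.0715). The call of EXPA7 was lost without replicate 3 before treatment (adjusted p = 0.0863) or without replicate 2 or 3 of NAA at 2 h (0.069 and 0.0848). EXPA7 at 6 h of NAA fell by 1.13 (SE 0.29, adjusted p = 0.00449) and EXPA18 by 1.15 (SE 0.30, adjusted p = 0.00514) from before treatment. At 6 h, naxillin exceeded NAA by 1.94 for EXPA7 (SE 0.29, adjusted p = 6.10e-05) and by 1.38 for EXPA18 (SE 0.30, adjusted p = 0.00155). None of the 12 root hair markers listed had a probe set of its own, so that a change in root hair cells as such was not tested.

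EXPA4 and EXPA20 climbed with NAA at both times. EXPA4 (AT2G39700) read 11.25, 10.94 and 11.48 before treatment, 12.55, 12.37 and 13.01 at 2 h of NAA and 13.66, 13.75 and 13.63 at 6 h of NAA. With naxillin EXPA4 read 11.10, 11.20 and 11.48 at 2 h and 10.88, 10.57 and 11.28 at 6 h. The NAA groups form 2 steps up without overlap, and the naxillin arrays lie among those before treatment or below. EXPA4 rose 2.68-fold at 2 h of NAA (log2 1.42, SE 0.20, adjusted p = 0.000135) and 5.49-fold at 6 h (log2 2.46, SE 0.20, adjusted p = 1.54e-07). EXPA20 (AT4G38210) read 7.74, 7.36 and 7.71 before treatment, 9.12, 8.88 and 9.26 at 2 h of NAA and 9.74, 9.92 and 9.68 at 6 h of NAA. With naxillin EXPA20 read 7.59, 7.33 and 7.35 at 2 h and 7.57, 7.18 and 7.80 at 6 h. EXPA20 shows the same steps, with most of the rise in place at 2 h: 1.48 at 2 h (SE 0.16, adjusted p = 1.33e-05) and 2.18 at 6 h (SE 0.16, adjusted p = 5.60e-08). With naxillin the differences from before treatment were −0.18 at 2 h for EXPA20 (95% interval −0.52 to 0.15) and 0.04 for EXPA4 (−0.38 to 0.46).

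**Figure D2:**
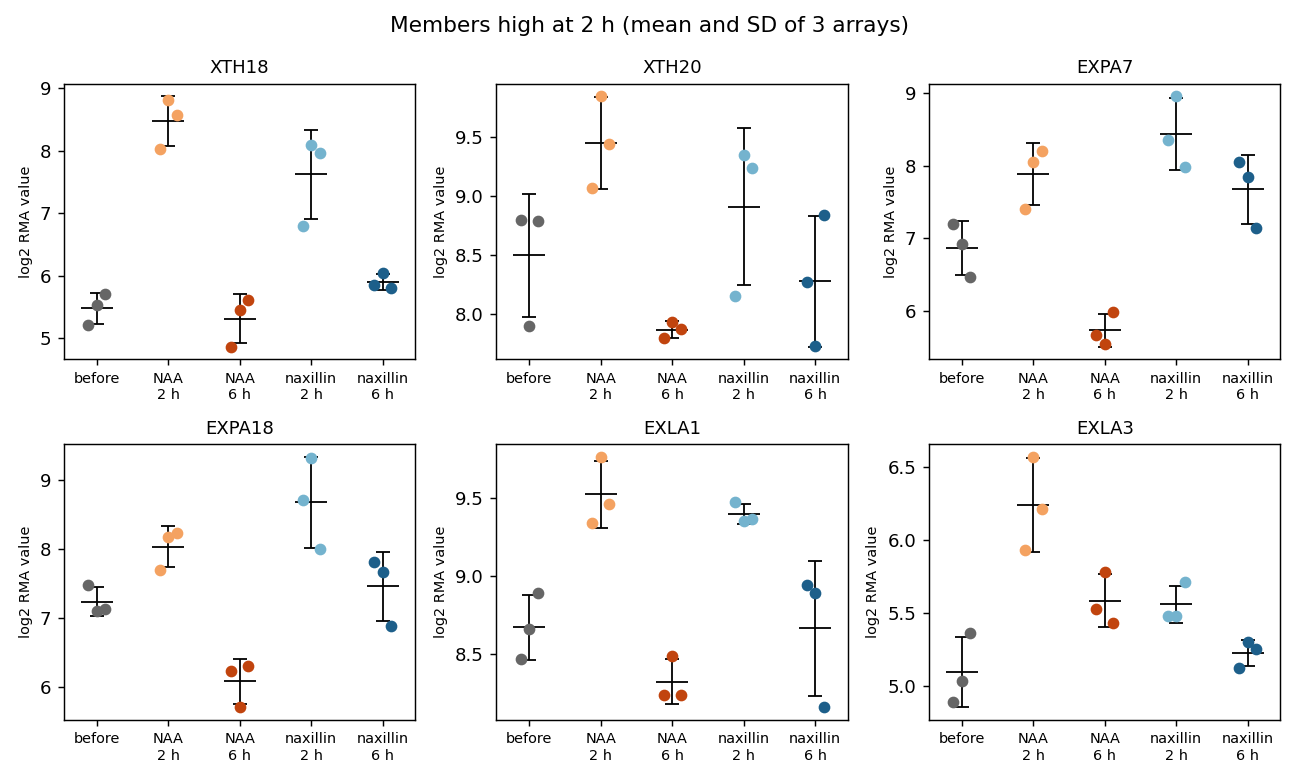
Log2 value of 6 genes by group; coloured points are the 3 arrays, the dash is their mean and the bar their SD. XTH18, EXPA7 and EXPA18 are highest at 2 h of NAA or naxillin, and the NAA arrays at 6 h are back near (XTH18, mean 5.32) or below (EXPA7, mean 5.74, and EXPA18, mean 6.08) the level before treatment.

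EXPA9 and EXPA15 were high at 6 h of NAA and not at 2 h. EXPA9 (AT5G02260) read 7.02, 7.17 and 6.90 before treatment, 6.95, 6.89 and 7.04 at 2 h of NAA and 8.94, 9.19 and 9.03 at 6 h of NAA. With naxillin EXPA9 read 6.64, 7.14 and 6.52 at 2 h and 6.84, 7.04 and 7.28 at 6 h. EXPA15 (AT2G03090) read 9.39, 8.42 and 9.47 before treatment, 8.19, 8.06 and 9.20 at 2 h of NAA and 11.74, 11.64 and 11.79 at 6 h of NAA. With naxillin EXPA15 read 8.05, 9.38 and 9.42 at 2 h and 7.82, 7.0 and 9.14 at 6 h. The 3 NAA arrays at 6 h lie close together and top all other arrays in both genes, whereas the replicates of EXPA15 spanned over 1 log2 unit in each of the other 4 groups. EXPA9 rose 4.07-fold at 6 h of NAA (log2 2.02, SE 0.15, adjusted p = 7.43e-08) and EXPA15 rose 6.18-fold (log2 2.63, SE 0.50, adjusted p = 0.000435). From 2 h to 6 h of NAA the rise was 2.1 for EXPA9 (SE 0.15, adjusted p = 1.49e-07) and 3.24 for EXPA15 (SE 0.50, adjusted p = 0.000129). EXPA15 had the widest spread of any member at 6 h of naxillin (mean 7.98, SD 1.08), and its difference of −1.11 from before treatment was not called (95% interval −2.18 to −0.04, adjusted p = 0.356).

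The remaining α-expansins, EXPA16 and EXPA8, were dim. EXPA16 stayed within 4.74 to 5.46 and rose by 0.42 at 6 h of NAA (SE 0.11, adjusted p = 0.00414). EXPA8 stayed within 4.39 to 5.02 and was not called in any comparison.

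**Figure D3:**
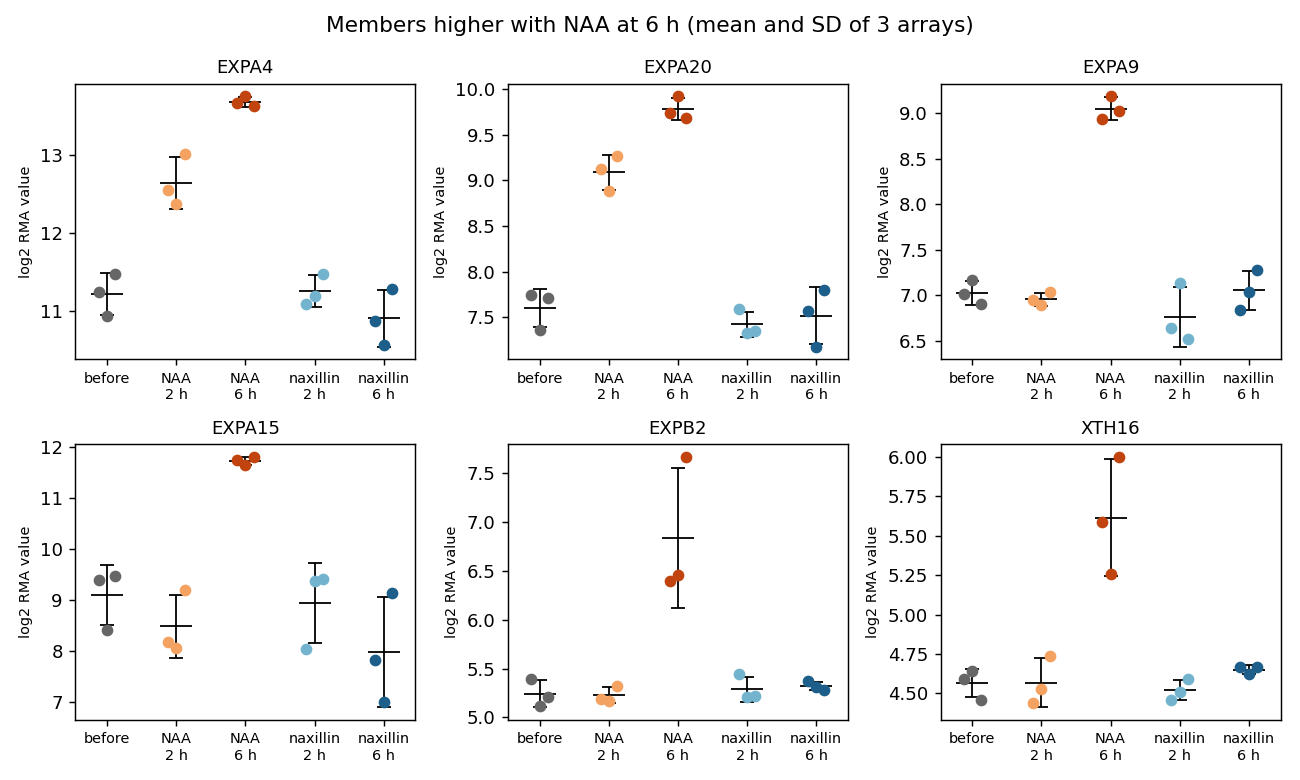
Log2 value of 6 genes that rose with NAA at 6 h, by group; coloured points are the 3 arrays, the dash is their mean and the bar their SD. EXPA4 and EXPA20 are already up at 2 h of NAA (means 12.64 and 9.09), while EXPA9, EXPA15, EXPB2 and XTH16 are up at 6 h, and the naxillin arrays stay near the level before treatment or below it.

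The β-expansins went different ways at 6 h of NAA. EXPB2 (AT1G65680) read 5.39, 5.12 and 5.21 before treatment, 5.19, 5.17 and 5.32 at 2 h of NAA and 6.40, 6.46 and 7.67 at 6 h of NAA. With naxillin EXPB2 read 5.44, 5.21 and 5.22 at 2 h and 5.37, 5.31 and 5.28 at 6 h. All 3 arrays at 6 h of NAA stand above the rest, and replicate 3 stands above the other two. The arrays of the other groups all lie below 5.5, where the dim probe sets ended, so that the rise starts from a dim signal. The rise of EXPB2 was 3.03-fold (log2 1.60, SE 0.24, adjusted p = 5.93e-05), and over the alternative settings it was 1.19 to 1.88 on the log2 scale. EXPB3 (AT4G28250) read 11.02, 10.64 and 11.35 before treatment, 10.50, 10.51 and 11.07 at 2 h of NAA and 9.51, 9.36 and 9.89 at 6 h of NAA. With naxillin EXPB3 read 10.07, 11.08 and 11.19 at 2 h and 10.15, 9.18 and 10.87 at 6 h. The NAA arrays at 6 h are below all those before treatment, and those at 6 h of naxillin run from the lowest value of all to a high one. EXPB3 fell by 1.42 at 6 h of NAA (SE 0.37, adjusted p = 0.00519), and at 6 h of naxillin the difference of −0.94 was not called (95% interval −1.74 to −0.13, adjusted p = 0.292). EXPB1 stayed within 4.97 to 5.87 and was not called in any comparison.

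EXLB1 was the member most steadily lowered by NAA among the expansin-like genes. EXLB1 (AT4G17030) read 8.43, 8.88 and 8.94 before treatment, 7.65, 7.39 and 7.53 at 2 h of NAA and 6.87, 6.38 and 6.86 at 6 h of NAA. With naxillin EXLB1 read 9.15, 9.13 and 9.13 at 2 h and 9.05, 9.82 and 9.20 at 6 h. The NAA arrays step down without overlap and all 6 naxillin arrays lie above those before treatment. EXLB1 fell by 1.23 at 2 h of NAA (SE 0.19, adjusted p = 0.00037) and 4.13-fold at 6 h (log2 −2.05, SE 0.19, adjusted p = 6.85e-07). With naxillin the differences from before treatment, 0.39 at 2 h (SE 0.19, adjusted p = 0.239) and 0.61 at 6 h (SE 0.19, adjusted p = 0.172), were not called. Naxillin exceeded NAA by 1.61 at 2 h (SE 0.19, adjusted p = 5.14e-05) and by 2.65 at 6 h (SE 0.19, adjusted p = 6.03e-08). The photosynthesis genes fell in the same arrays as XTH32, XTH27, EXPB3 and EXLB1: RCA by 0.58 at 2 h of NAA (adjusted p = 0.0187) and 2.00 at 6 h (adjusted p = 2.08e-07), and LHCB4.2 by 2.29 (adjusted p = 0.000413) and 3.1 (adjusted p = 5.39e-06). At 2 h of naxillin, where no wall gene was called lower, RCA fell by 0.55 (adjusted p = 0.0474) and LHCB4.2 fell by 1.22 (adjusted p = 0.0462). Their part in the falls of the wall genes was not tested.

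**Figure D4:**
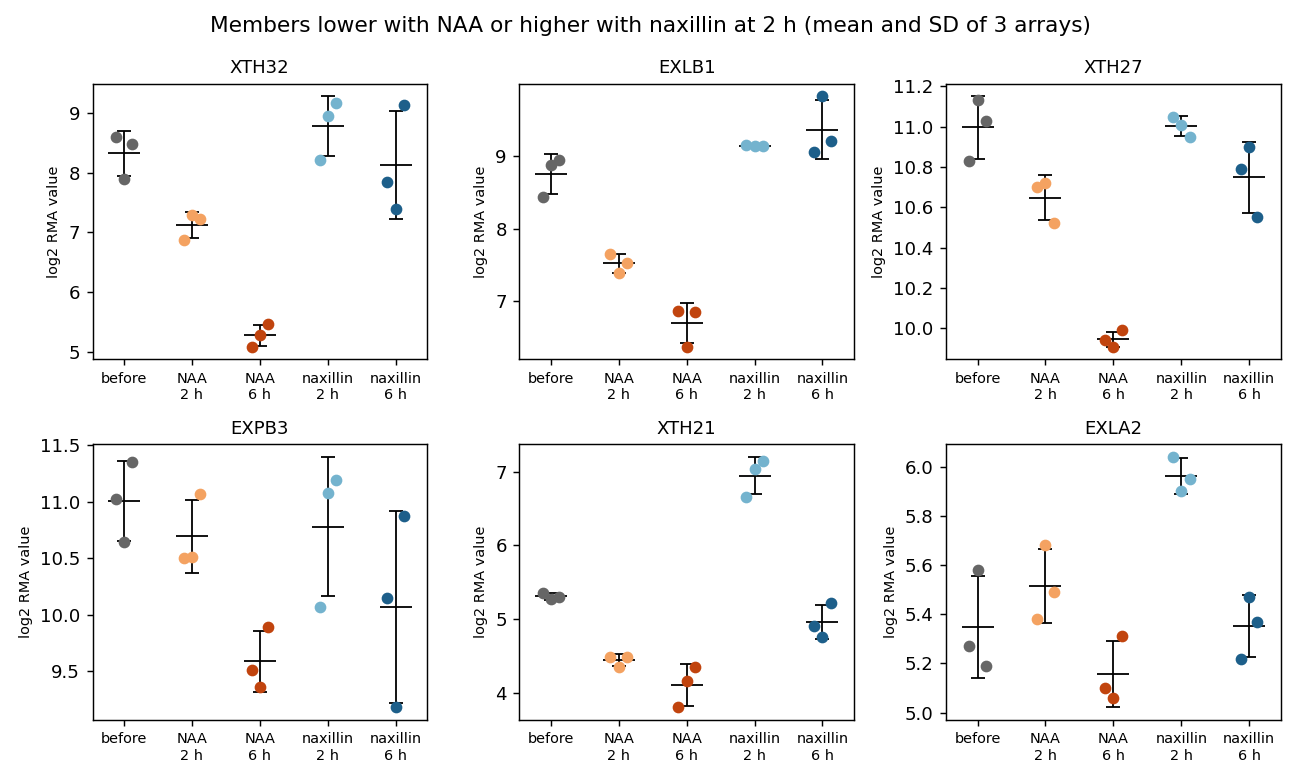
Log2 value of 6 genes by group; coloured points are the 3 arrays, the dash is their mean and the bar their SD. XTH32, EXLB1 and XTH27 step down from 2 h to 6 h of NAA, and XTH21 and EXLA2 are highest at 2 h of naxillin (means 6.94 and 5.96).

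The 3 EXLA genes were each called higher at 2 h of at least 1 compound. EXLA3 and EXLA1 are adjacent protein-coding genes in that annotation, and both rose at 2 h of NAA. EXLA3 (AT3G45960) read 4.89, 5.03 and 5.36 before treatment, 5.93, 6.57 and 6.21 at 2 h of NAA and 5.53, 5.78 and 5.43 at 6 h of NAA. With naxillin EXLA3 read 5.48, 5.48 and 5.71 at 2 h and 5.12, 5.30 and 5.25 at 6 h. The arrays at 2 h of NAA are the highest and those at 6 h of NAA lie between them and the level before treatment. EXLA3 rose by 1.14 at 2 h of NAA (SE 0.16, adjusted p = 0.00014), and naxillin was lower than NAA at that time (log2 −0.68, 95% interval −1.02 to −0.34, adjusted p = 0.00846). Its rise of 0.49 at 6 h of NAA (SE 0.16, adjusted p = 0.0179) was lost without replicate 1 or 2 before treatment or without replicate 2 of NAA at 6 h (highest adjusted p 0.0833). EXLA1 rose by 0.85 at 2 h of NAA (mean 9.52 ± 0.21, SD, from 8.67 ± 0.21; adjusted p = 0.00355) and by 0.72 at 2 h of naxillin (mean 9.40 ± 0.06; adjusted p = 0.0235). Its call with naxillin was lost without replicate 1 or 2 before treatment or without any 1 of the 3 naxillin arrays (highest adjusted p 0.0796). For EXLA1 naxillin and NAA at 2 h differed by −0.13 (95% interval −0.52 to 0.27), an interval that holds differences of either sign. EXLA2 rose by 0.62 at 2 h of naxillin (mean 5.96 ± 0.07, SD, from 5.35 ± 0.21; adjusted p = 0.00543). At 2 h of NAA EXLA2 had a mean of 5.51 ± 0.15, and the difference of 0.17 was not called (SE 0.12, adjusted p = 0.36).

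Set against each other at the same time, with a dose of 50 µM for naxillin and 10 µM for NAA, the compounds differed at 8 members at 2 h and 13 at 6 h. At 2 h 5 were higher with naxillin (XTH21, XTH27, XTH32, EXLA2 and EXLB1) and 3 lower (EXPA4, EXPA20 and EXLA3), where 16.1% of all probe sets were called (7.39% higher, 8.68% lower). At 6 h 6 were higher with naxillin and 7 lower, where 50.6% of all probe sets were called (27.2% higher, 23.5% lower). The 6 were XTH21, XTH27, XTH32, EXPA7, EXPA18 and EXLB1, and the 7 were XTH16, EXPA4, EXPA9, EXPA15, EXPA16, EXPA20 and EXPB2. The largest differences at 6 h were those of EXPA15, 13.4-fold higher with NAA (log2 −3.74, SE 0.50, adjusted p = 1.93e-05), and XTH32, 7.22-fold higher with naxillin (log2 2.85, SE 0.36, adjusted p = 1.18e-05). At 2 h they were those of XTH21, given above, and of EXPA20 (log2 −1.66, SE 0.16, adjusted p = 6.08e-06), followed by XTH32 (log2 1.65, SE 0.36, adjusted p = 0.00585). EXPA4 was lower with naxillin at 2 h (log2 −1.38, SE 0.20, adjusted p = 0.00024) and at 6 h (−2.77, SE 0.20, adjusted p = 5.09e-08). The weak calls at 2 h were those of XTH27 (0.36, adjusted p = 0.0285) and EXLA2 (0.45, adjusted p = 0.0165). XTH27 was not called without replicate 3 of NAA or replicate 1 or 2 of naxillin (highest adjusted p 0.13), and EXLA2 without replicate 1 or 3 of NAA or replicate 1 of naxillin (0.0699). At 6 h the call of EXPA16 (−0.32, adjusted p = 0.0234) was lost without replicate 1 or 3 of NAA or replicate 1 or 2 of naxillin (highest adjusted p 0.117). With spike-in scaling, the median difference over the array at 6 h went from 0.02 to −0.33, and the members gave 6 higher and 10 lower. How many of all probe sets were called under that scaling was not counted.

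**Figure D5:**
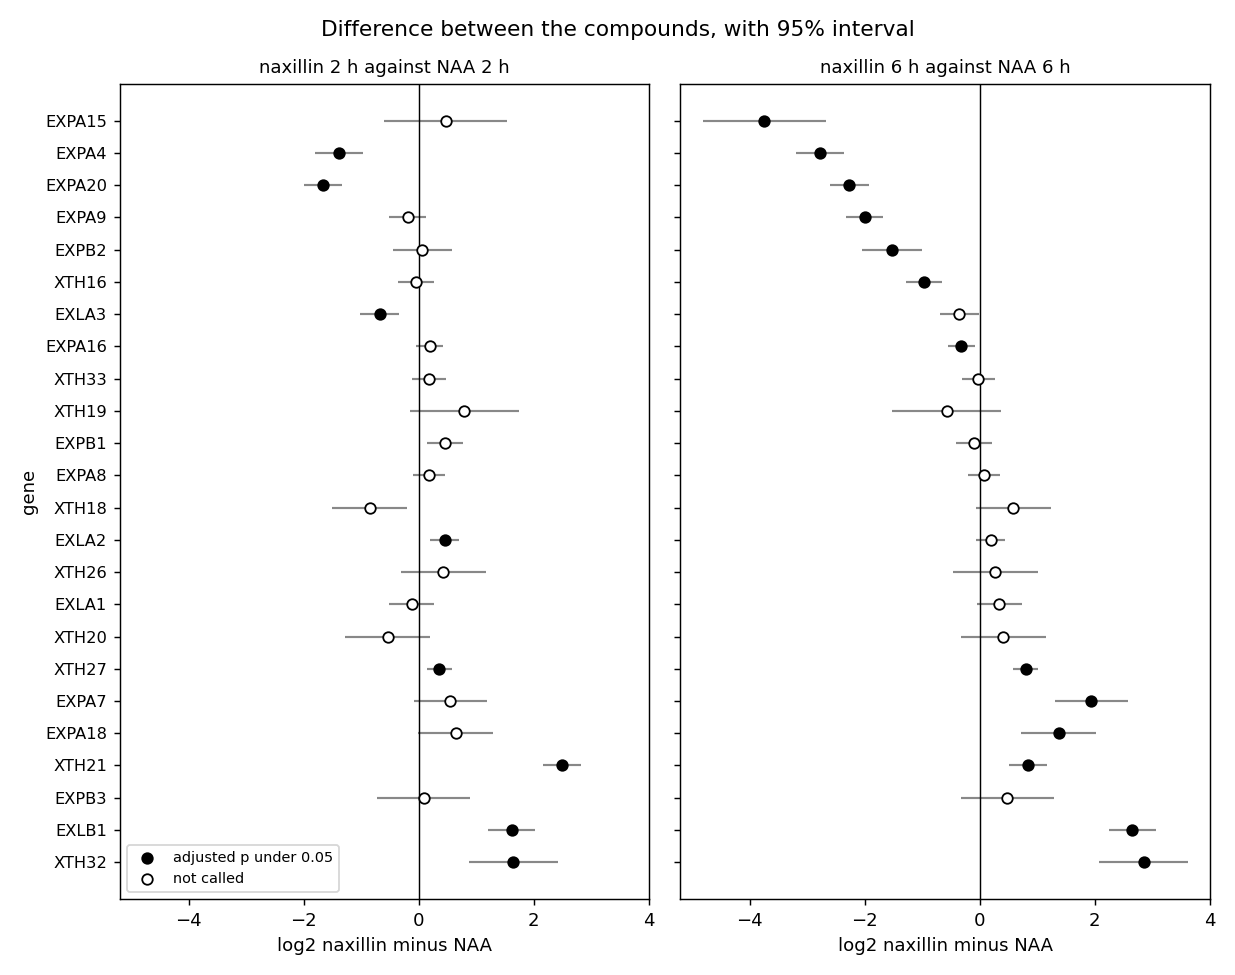
Difference between naxillin and NAA (log2, naxillin minus NAA) for the 24 genes at 2 h and at 6 h, with 95% intervals of the limma fit; filled points have an adjusted p under 0.05. At 2 h 8 points are filled and at 6 h 13, from EXPA15 (−3.74) to XTH32 (2.85).

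Over time, the NAA response moved most. From 2 h to 6 h of NAA 18 of the 24 genes were called, 7 higher and 11 lower, where 41.6% of all probe sets were called (19.9% higher, 21.6% lower). The rises were those of XTH16 (1.05), EXPA4 (1.04), EXPA9, EXPA15, EXPA16 (0.31), EXPA20 (0.70) and EXPB2 (1.61). Among the falls were XTH18, EXPA7 (−2.15, SE 0.29, adjusted p = 4.62e-05), EXPA18 (−1.95, SE 0.30, adjusted p = 0.000144), XTH32 (−1.85), XTH20 and EXLA1 (−1.2, SE 0.18, adjusted p = 0.000115). The others were XTH27 (−0.70), EXLB1 (−0.82), EXLA3 (−0.66), EXLA2 (−0.36) and EXPB3 (−1.11). EXPA16, EXPB3 and EXLA2 each lost this call without some single array (highest adjusted p 0.141, 0.104 and 0.105), among them replicate 1 of NAA at 6 h for all 3. The other arrays were replicate 3 of NAA at 2 h and 2 of NAA at 6 h for EXPB3, replicate 2 of both NAA groups for EXLA2, and replicates 1 and 2 at 2 h and 3 at 6 h for EXPA16. With spike-in scaling, under which the median over the array was 0.18 and not −0.01 here, EXPB3 and EXLA2 were not called (adjusted p 0.06 and 0.243), nor was EXPA16 in a fit of the NAA arrays alone (0.0548). From 2 h to 6 h of naxillin limma called 3 lower and 0 higher, XTH18, XTH21 and EXLA2 (−0.61, adjusted p = 0.016). Of all probe sets 2.29% were called (0.813% higher, 1.47% lower). At an unadjusted p under 0.05 limma gave 10 members lower and 0 higher, but the share of all probe sets at that threshold was not counted. EXLA2 lost that call without replicate 3 of naxillin at 2 h or replicate 1 at 6 h (highest adjusted p 0.0751). XTH18 and EXLA2 also lost it in a fit of the naxillin arrays alone (adjusted p 0.101 and 0.0752). The number called lower was 8 with spike-in scaling and 15 with array weights, again with 0 higher. Spike-in scaling moved the median over the array from 0.001 to −0.144 here. The share of all probe sets called under either setting was not counted.

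Whether the change from 2 h to 6 h differed between the compounds was tested as an interaction, which called 11 members, where 30.3% of all probe sets were called (15.1% more positive with naxillin, 15.2% with NAA). Of these 4 had the more positive change with naxillin (XTH18, XTH27, EXPA7 and EXLB1) and 7 with NAA (XTH16, XTH21, EXPA4, EXPA9, EXPA15, EXPA16 and EXPB2). The split was 3 and 12 with spike-in scaling, 3 and 9 with median centring and 3 and 8 with a second quantile normalization. For these 3 scalings the share of all probe sets called was not counted, so the splits have no baseline. Spike-in scaling moved the median over the array from 0.01 to −0.317 here. XTH27 (0.45, adjusted p = 0.031) was not called in 8 of the 12 fits that left out 1 of the NAA or naxillin arrays, nor with any of those 3 scalings (highest adjusted p 0.49). XTH18 (1.44, adjusted p = 0.02) was not called without replicate 2 of NAA at 2 h or replicate 1 at 6 h (highest 0.0553), and EXPA7 (1.39, adjusted p = 0.0201) not without replicate 3 of naxillin at 2 h or replicate 1 at 6 h (0.0559). EXPA16 (−0.51, adjusted p = 0.0208) lost its call without replicate 2 of either compound at 2 h or replicate 3 of NAA at 6 h (0.0565). The largest was that of EXPA15 (−4.21, SE 0.71, adjusted p = 0.000564), which rose with NAA over that time while its mean with naxillin went from 8.95 to 7.98. For EXPA18 the interaction was 0.73 with an SE of 0.43 and was not called (adjusted p = 0.237).

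Few other genes of wall growth had a probe set of their own. Of 18 genes for xyloglucan synthesis and trimming 5 were measured, all of them CSLC genes, which belong to the family that makes the xyloglucan backbone. At 2 h of NAA 1 rose, CSLC4, and 1 fell, CSLC5 (−0.30, SE 0.10, adjusted p = 0.0377). CSLC4, the best known backbone synthase, read 8.47, 8.33 and 8.08 before treatment and 10.37, 10.78 and 9.99 at 2 h of NAA. CSLC4 at 6 h of NAA read 8.84, 8.91 and 8.60, and with naxillin its means were 8.77 at 2 h and 8.71 at 6 h. The NAA arrays at 2 h are above all other arrays. CSLC4 rose 4.25-fold (log2 2.09, SE 0.20, adjusted p = 4.78e-06) and then fell by 1.60 from 2 h to 6 h of NAA (SE 0.20, adjusted p = 1.95e-05). By 6 h of NAA 1 of the 5, CSLC8, was called higher than before treatment (0.45, adjusted p = 0.0156) and 1, CSLC5, lower (−0.82, adjusted p = 7.44e-06). In either naxillin group limma called 0 of the 5 against before treatment, and at an unadjusted p under 0.05 there were 3 at 2 h and 0 at 6 h. The share of all probe sets at that threshold was not counted. Of 11 genes for cellulose synthesis in the primary wall only COB, needed for oriented cellulose deposition, was measured, and it fell by 1.14 at 6 h of NAA (SE 0.18, adjusted p = 0.000114). Of 17 genes that act on the acidity of the wall only PP2C.D2 (AT3G17090) was measured, of a phosphatase family known to restrain the plasma membrane proton pumps and so to oppose acidification. It rose by 0.32 at 2 h of NAA (SE 0.10, adjusted p = 0.0305). CSLC5, CSLC8 and PP2C.D2 are named because they are the single genes behind counts of 1, and were chosen after their values were seen.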

How the data were processed

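Total RNA of 15 samples was measured on Affymetrix ATH1 arrays. The deposited values are log2 expression values per probe set, made by the authors with RMA in affy 1.36.0, per the submitters' processing notes; any filter is not given in the sources used here. The table held 22810 probe sets, and 64 controls were left out of the tests. Of the other 22746, the platform annotation, which can be old, gave 13513 to 1 gene, 503 to several and 8730 to none. Members were matched by locus tag. The members, lists and tests were chosen with earlier results of these data known.

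Group means were fitted with limma 3.58.1 in R 4.3.3 to all 15 arrays, with 10 residual degrees of freedom, two-sided moderated tests and Benjamini-Hochberg adjustment over 22746 probe sets. A call is an adjusted p under 0.05. Array values were given for members called with a change of at least 1 against before treatment or between compounds; XTH19, XTH20 and XTH26 were added after their values were seen. The procedure was tested on simulated data, for NAA at 2 h against before treatment. The simulated noise was independent between arrays, so that deviations shared by same-numbered arrays were not covered. Alternatives were a replicate block, the arrays of a contrast alone, another prior, array weights, 3 scalings, a filter on dim probe sets, a threshold of 0.01 and leaving out each array. Same-numbered arrays came from 3 numbered replicates, but no source ties a number to 1 experiment across groups. The number of arrays limits the precision. Tables and plots used Python 3.11.15 and matplotlib 3.10.9.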

Additional observations from a re-analysis of the deposited data

Results flagged for a closer look

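The change from 2 h to 6 h differed between the compounds, by the interaction test in limma, for 11 members, where 30.3% of all probe sets were called. The difference (log2, naxillin change minus NAA change) was −4.21 for EXPA15, −1.81 for EXPA9, −1.65 for XTH21, −1.58 for EXPB2, −1.39 for EXPA4, −0.92 for XTH16 and −0.51 for EXPA16. It was 1.44 for XTH18, 1.39 for EXPA7, 1.04 for EXLB1 and 0.45 for XTH27. The interaction calls of XTH18, EXPA7, EXPA16 and XTH27 were each lost without some single array, as given above. For EXPA9, EXPA15, EXPB2, XTH16 and EXPA4, the NAA arrays rose over that time. For XTH21 the negative value came with a fall of 1.98 with naxillin, while with NAA its difference of −0.33 was not called.

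EXPA7, an expansin of root hairs, was called in opposite directions at 2 h and 6 h of NAA, and the later time was lower than the earlier by a log2 difference of −2.15. The call of EXPA7 at 2 h of NAA was lost without some single arrays (highest adjusted p in limma 0.0863). XTH21 was called in opposite directions at 2 h of NAA and of naxillin, with naxillin 2.50 above NAA. In both cases the difference itself was tested, as given in the report.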

How the results depend on the processing

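With 1 array left out, the number of members called ran from 7 to 12 at 2 h of NAA, from 14 to 16 at 6 h of NAA, from 5 to 7 at 2 h of naxillin and from 0 to 0 at 6 h of naxillin. Between the compounds it ran from 6 to 9 at 2 h and from 12 to 14 at 6 h, over time from 15 to 19 with NAA and from 2 to 4 with naxillin, and for the interaction from 9 to 13. At 6 h of naxillin array weights gave 4 calls in place of 0. From 2 h to 6 h of naxillin, in place of 3, there were 1 with the arrays of the contrast alone, 15 with array weights, 8 with spike-in scaling and 1 at an adjusted p under 0.01. The interaction gave 7 in place of 11 at an adjusted p under 0.01. The share of all probe sets called was not counted for any of these alternatives. The cause of these changed counts was not tested, apart from the stricter threshold, which lowers a count by construction. Of 84 member calls 67 were kept without each array in turn and 0 turned their sign under the settings run. Under the other refits 7 of the 84 were lost at least once, not counting members that the filter on dim probe sets removed. The filter on dim probe sets left 15 members to test. Averaging the probe sets of a gene changed nothing, as each member had 1.

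With the replicate number as a block, the counts in the order above were 11, 15, 8, 0, 10, 15, 19, 6 and 15. The share of all probe sets called with the block was not counted. The block added 15 member calls and ended 0. Among them were genes without a call otherwise: XTH19 from 2 h to 6 h of naxillin (−1.58, adjusted p = 0.02 in limma) and in the interaction (adjusted p = 0.0385), XTH26 at 2 h of naxillin (0.88, adjusted p = 0.0418) and EXPB1 between the compounds at 2 h (0.46, adjusted p = 0.0349). XTH18 between the compounds at 2 h was also added (−0.85, adjusted p = 0.00585). So was XTH20 at 2 h of NAA (0.954, adjusted p = 0.0428), which missed the threshold without the block. XTH19 at 2 h of naxillin had an adjusted p of 0.0523 with the block. Of 30 pairs of same-numbered arrays from different groups, 23 had deviations from the group means that correlated over 0.1 (median of the 30 0.221, lowest −0.234). For 11 of 15 arrays, the mean correlation with arrays of other groups was highest for those of their own number. The numbers were not taken as pairing the samples.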

Other observations

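Replicates of a group were not equally spread over the members. The median SD of the 24 genes was 0.32 at 2 h of naxillin and 0.18 to 0.23 in the other groups. At 2 h of NAA replicate 1 was the lowest array for 13 of the 24 genes, beside 27.1% of all probe sets. Before treatment replicate 2 was the lowest array for 9 of the 24 genes, near the share of 35.4% of all probe sets. At 6 h of naxillin replicate 2 was the lowest for 11 of the 24, beside 39.8%. XTH20, XTH21, XTH32, EXPA4, EXPA15, EXPA20 and EXPB3 were lowest in replicate 2 both before treatment and at 6 h of naxillin. At 6 h of NAA replicate 3 was the highest array for 16 of the 24 genes, beside 43.1% of all probe sets.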
